A study of Drosophila melanogaster and Drosophila simulans with 11 samples.

Results

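The homeotic gene complexes on chromosome arm 3R were described in 5 ChIP-seq libraries of *D. melanogaster*. Members were all bins of 1 kb within the windows 3R:12480000-12800000 (bithorax complex, *Ubx* to *Abd-B*) and 3R:2480000-2860000 (Antennapedia complex, *lab* to *Antp*) of release 5 of the genome, 320 and 380 bins, as long as at least 25 of the 100 possible positions in a bin carried a value. The bins that passed numbered 410 (MSL2) and 439 (MOF) in wild type and 149 (MSL1), 499 (MSL2) and 582 (MOF) in *roX* mutants. In the same libraries 101514, 78635, 71310, 92859 and 90740 bins passed on X, 2L, 2R, 3L, 3R and 4 together. The windows were set by position, with earlier results of these data known, and a bin became a member only where enough positions carried a value. The comparison stretch is the 1 Mb on either side of each window, called flanks below.

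Chromatin came from salivary glands of larvae in the third instar, reared at 25 °C on potato mash, with 125 pooled glands per sample. Wild type was Oregon R, and *roX* mutants were males whose X-chromosome carried the alleles roX1[ex6] and Df(1)roX2[52], the markers y and w and the transgene P[w+ 4Δ4.3], so that both *roX* genes were mutant. ChIP-seq measures where a protein sits by sequencing the DNA recovered with an antibody against it. The values are log2 ratios of ChIP to input at positions 10 bp apart, and all libraries of a genotype share the same input. There is 1 library for each antibody and genotype. Replicate error is therefore unknown, no test was made, and every difference below describes these libraries alone. Wild type MSL1 was not analysed here, the methods stating that this sample was lost.

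MSL1, MSL2 and MOF belong to the MSL-complex, which together with the *roX* RNAs coats the single male X-chromosome, where MOF acetylates histone H4 at lysine 16. Homeotic genes give body segments their identity and lie in clusters whose order follows the body axis. Outside their domains of activity they are held silent by Polycomb group proteins, and in salivary glands, whose giant polytene chromosomes replicate without dividing, the bithorax complex is a textbook site of incomplete replication. Ratios of MSL ChIP hold no expression, Polycomb or copy number data, so neither the silent state nor the tissue could be checked in these libraries.

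Gene order was taken from the RefSeq annotation of Release 6, and no gene was placed at a coordinate of release 5. Among protein-coding genes from the first to the last homeotic gene, *Ubx*, which specifies the posterior thorax and the first abdominal segment, is number 1 of 6 at the low-coordinate end of the bithorax complex. *abd-A*, which specifies abdominal segments, is number 4, and *Abd-B*, which specifies the most posterior segments and the genitalia, is number 6. In the Antennapedia complex *lab*, a head gene, is number 1 of 19. The mouthpart gene *pb* is number 10, and *zen2* and *zen*, homeobox genes of the complex of which *zen* acts in the dorsal embryo, are numbers 11 and 13. The maternal anterior determinant *bcd* is number 14 and *Ama*, an immunoglobulin family gene, number 15. The head gene *Dfd* is number 16, *Scr* of the labial and first thoracic segments number 17, the pair-rule gene *ftz* number 18 and *Antp* of the thorax number 19.

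The bithorax complex was poorly covered in every library. Coverage, the share of 10 bp positions that carry a value, was 19.9% (MSL2) and 23.3% (MOF) in wild type and 7.94% (MSL1), 28.2% (MSL2) and 43.1% (MOF) in *roX* mutants. The flanks had 80.6%, 67.0%, 35.9%, 71.5% and 74.4% in the same order. The difference was therefore -60.7, -43.7, -28.0, -43.3 and -31.3 percentage points, and all libraries agreed in its direction. Among the 80 consecutive windows of 320 kb on 3R outside its first 2 Mb, the bithorax complex had the lowest coverage in all libraries but wild type MOF, where the window 3R:6720000-7040000 was lower with 18.8%.

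Few bins of the bithorax complex could be measured. With at least 25 values there were 95 of 320 bins (MSL2) and 113 (MOF) in wild type and 40 (MSL1), 136 (MSL2) and 209 (MOF) in *roX* mutants, or 29.7%, 35.3%, 12.5%, 42.5% and 65.3% of the window. As background, 10.0%, 22.6%, 30.2%, 8.33% and 8.43% of the bins on the autosomal arms outside the 2 Mb at their centromere ends had fewer than 25 values. Of the 320 bins, 104 (32.5%) were measured in no library, against 38 of 2000 flank bins (1.90%), and 38 were measured in all 5.

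The loss of coverage was centred within the complex and its ends were nearly normal. The first 20 kb, at the *Ubx* end, had a coverage of 79.8% (MSL2) and 78.6% (MOF) in wild type and 38.7% (MSL1), 75.7% (MSL2) and 88.6% (MOF) in *roX* mutants. The last 20 kb, at the *Abd-B* end, had 71.5%, 72.1%, 35.0%, 70.5% and 83.7%. Between them coverage fell to 0% in both wild type libraries and in MSL1 of *roX* mutants. It fell to 3.55% for MSL2 (3R:12620000-12640000) and 11.6% for MOF (3R:12680000-12700000) of *roX* mutants. The profile was U-shaped in each library, and *roX* mutant MOF was the only one in which each of the 16 steps of 20 kb held at least 10% of its positions.

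The longest run of consecutive bins without a measurement was 200 kb in wild type MSL2 (3R:12547000-12747000), 77 kb in wild type MOF, 188 kb in *roX* mutant MSL1, 70 kb in *roX* mutant MSL2 and 21 kb in *roX* mutant MOF. Outside both complexes the longest run on 3R was 162, 158, 134, 46 and 46 kb. The run in the bithorax complex was thus the longest of the arm in wild type MSL2, *roX* mutant MSL1 and *roX* mutant MSL2 and the second longest in both MOF libraries.

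**Figure D1:**
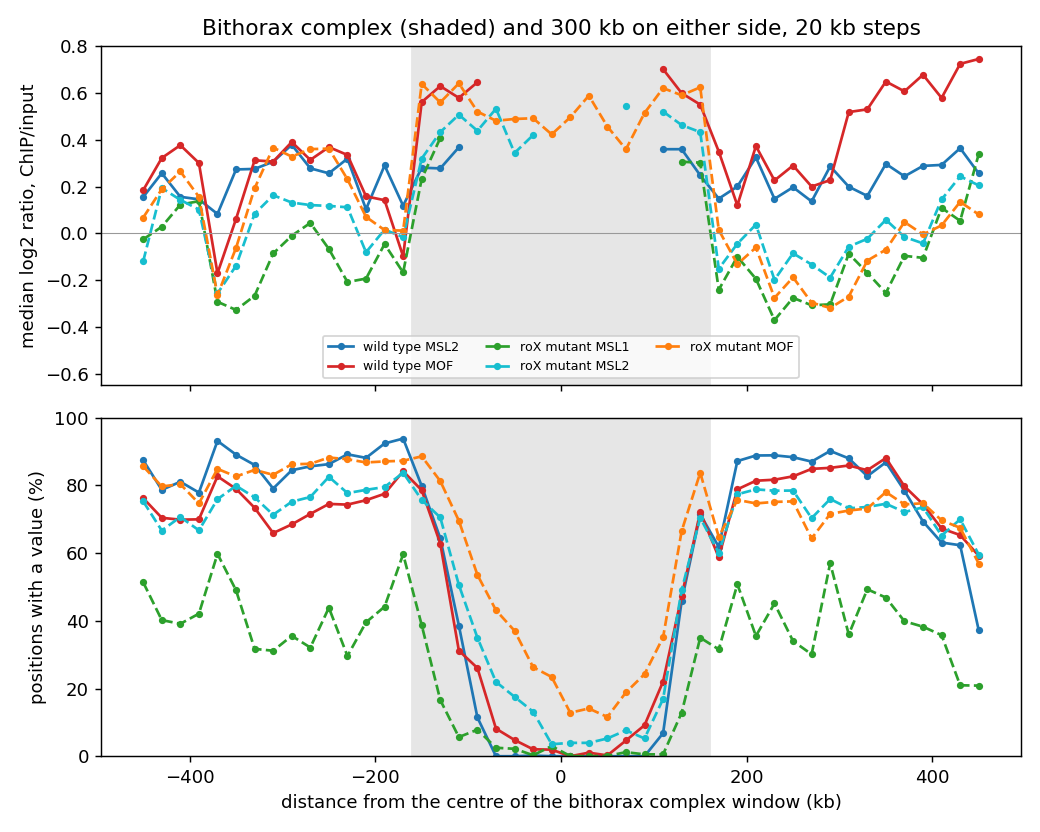
Median log2 ratio of ChIP to input (upper panel) and share of 10 bp positions with a value in percent (lower panel) in steps of 20 kb across the bithorax complex (shaded) and 300 kb on either side, against the distance from the centre of the window in kb; each line is 1 library, solid for wild type and dashed for *roX* mutants, and steps with fewer than 3 measured bins have no level. Coverage drops to between 0% and 11.6% near the centre in all libraries, while the levels that remain lie above most of the steps on either side.

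Where the bithorax complex could be measured, its level was above that of the flanks in every library. The median log2 ratio of its bins was 0.31 (MSL2) and 0.61 (MOF) in wild type and 0.30 (MSL1), 0.44 (MSL2) and 0.56 (MOF) in *roX* mutants. The flank medians were 0.20, 0.23, -0.16, -0.02 and 0.01. The level difference was smallest in wild type MSL2, with 0.12, and was 0.39 in wild type MOF. It was 0.46 (MSL1), 0.45 (MSL2) and 0.54 (MOF) in *roX* mutants. Of the measured bins, 77.9% lay above the flank median in wild type MSL2 and 99.3% in *roX* mutant MSL2, and all of them did in the other 3 libraries. The middle 50% of bins overlapped between complex and flanks in wild type MSL2 only (0.21 to 0.41 against 0.07 to 0.31).

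In the order of the 80 windows of 3R the bithorax complex had the highest level in *roX* mutant MSL1 and *roX* mutant MSL2, the second highest in *roX* mutant MOF, the fourth in wild type MSL2 and the twelfth in wild type MOF. The highest other window of *roX* mutant MSL2 and *roX* mutant MOF was 3R:2560000-2880000, which overlaps the Antennapedia complex, with 0.29 and 0.57. In wild type MOF the whole arm was high, the rest of 3R lying 0.20 above the median of the 4 autosomal arms, and its flanks differed, with 0.09 on the low side and 0.35 on the high side. The value for wild type MOF hence depends on the side it is compared with.

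A bin was called higher or lower when it lay 0.5 or more above or below the median of the autosomal arms in its library. In the bithorax complex 0 of 95 bins were higher in wild type MSL2, where the background was 0.148% of the bins on the arms. In wild type MOF 39 of 113 bins were higher (34.5%, background 8.52%). In *roX* mutants it was 10 of 40 bins for MSL1 (25.0%, background 5.11%), 48 of 136 for MSL2 (35.3%, background 1.48%) and 131 of 209 for MOF (62.7%, background 5.22%). The share of higher bins was above the background in all libraries but wild type MSL2. On 3R alone, outside its first 2 Mb, the background was 0.106% (MSL2) and 18.0% (MOF) in wild type and 4.04% (MSL1), 1.67% (MSL2) and 3.72% (MOF) in *roX* mutants. None of the bins was lower in any library, where the background was 0.802%, 14.1%, 5.55%, 3.31% and 8.47%.

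**Figure D2:**
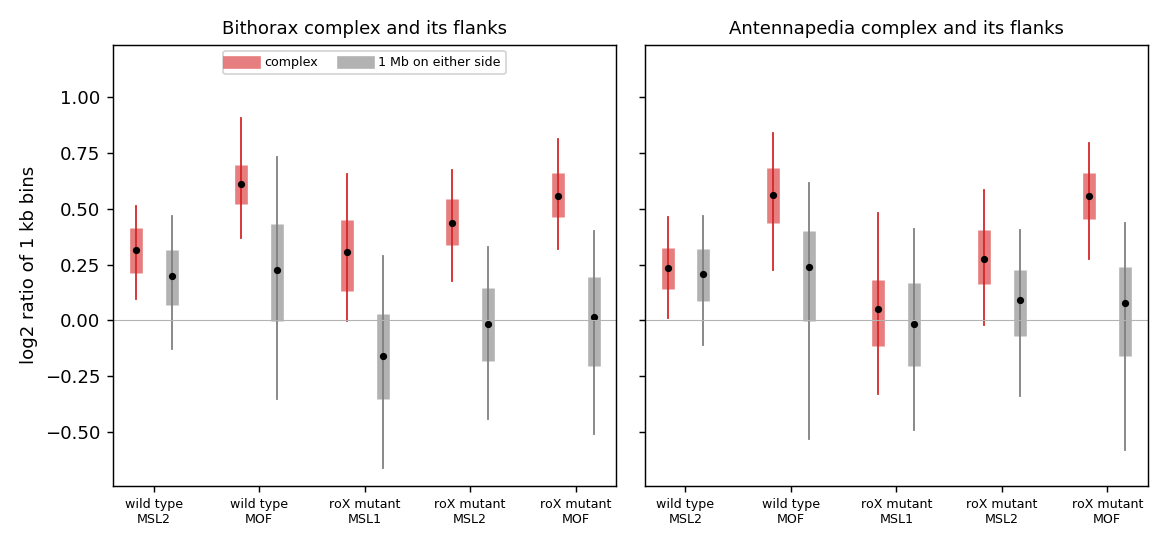
Log2 ratio of 1 kb bins (vertical axis) in each library for the bithorax complex (left) and the Antennapedia complex (right), red for the complex and grey for the 1 Mb on either side; points are medians, thick bars the middle 50% and thin lines the range from the 5th to the 95th percentile of bins. Bars of complex and flanks are apart in the bithorax complex except in wild type MSL2, and in the Antennapedia complex they are apart in both MOF libraries.

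The level of the bithorax complex could be followed only where coverage remained. In both wild type libraries and in *roX* mutant MSL1 the steps with a level lay towards the ends of the window. Whether the level was flat across the centre could not be seen in those libraries. Across the steps of 20 kb with at least 3 measured bins, levels ranged from 0.25 to 0.37 in wild type MSL2 (6 steps), from 0.55 to 0.70 in wild type MOF (7 steps), from 0.23 to 0.41 in *roX* mutant MSL1 (4 steps), from 0.32 to 0.54 in *roX* mutant MSL2 (11 steps) and from 0.36 to 0.64 in *roX* mutant MOF (16 steps). In *roX* mutant MOF, the only library with a level in each step, the highest step was 3R:12520000-12540000 and the lowest 3R:12700000-12720000, where 7 bins were measured. Over 4 equal stretches of the window from the *Ubx* end, the medians of *roX* mutant MOF were 0.58, 0.49, 0.48 and 0.59 at a coverage of 73.2%, 32.5%, 14.4% and 52.4%. The inner stretches of the complex were thus lower in level and in coverage than the outer ones in this library.

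Single bins ranged from 0.16 to 0.99 in *roX* mutant MOF and from -0.11 to 0.81 in *roX* mutant MSL2. The highest bin was 3R:12795000-12796000, near the *Abd-B* end, in both *roX* mutant MSL1 (0.75) and *roX* mutant MOF (0.99). In *roX* mutant MSL2 it was 3R:12532000-12533000 (0.81), in wild type MOF 3R:12792000-12793000 (1.10) and in wild type MSL2 3R:12763000-12764000 (0.69, from 35 values). The highest bin of MOF lay within the last 10 kb of the window in both genotypes.

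The level changed at the edges of the bithorax complex, where coverage was higher than near its centre. At the *Ubx* end the 20 kb inside and outside the window had 0.28 and 0.12 (MSL2) and 0.56 and -0.10 (MOF) in wild type. Inside and outside, *roX* mutants had 0.23 and -0.17 (MSL1), 0.32 and -0.02 (MSL2) and 0.64 and 0.01 (MOF). Coverage inside and outside was 79.8% and 93.8%, 78.6% and 84.2%, 38.7% and 59.7%, 75.7% and 83.7%, and 88.6% and 87.3%. Coverage differed least in *roX* mutant MOF, where the step in level was 0.63, and most in *roX* mutant MSL1. The part of coverage in these steps was not tested. At the *Abd-B* end the inside was higher by 0.10, 0.20, 0.54, 0.58 and 0.61, at a coverage that was higher inside than outside in every library.

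The position of the largest step in level within 50 kb of each edge was searched with 20 kb on either side. At the *Ubx* end it lay between 7 kb outside and 1 kb inside the window in all libraries but wild type MSL2, where it was 42 kb outside. Its size was 0.70 in wild type MOF, and 0.45 (MSL1), 0.42 (MSL2) and 0.76 (MOF) in *roX* mutants. At the *Abd-B* end it lay 6 kb outside in wild type MOF, at the edge in *roX* mutant MSL1 and *roX* mutant MSL2 and 1 kb inside in *roX* mutant MOF. In wild type MSL2 it was 17 kb inside and only 0.17 in size.

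**Figure D3:**
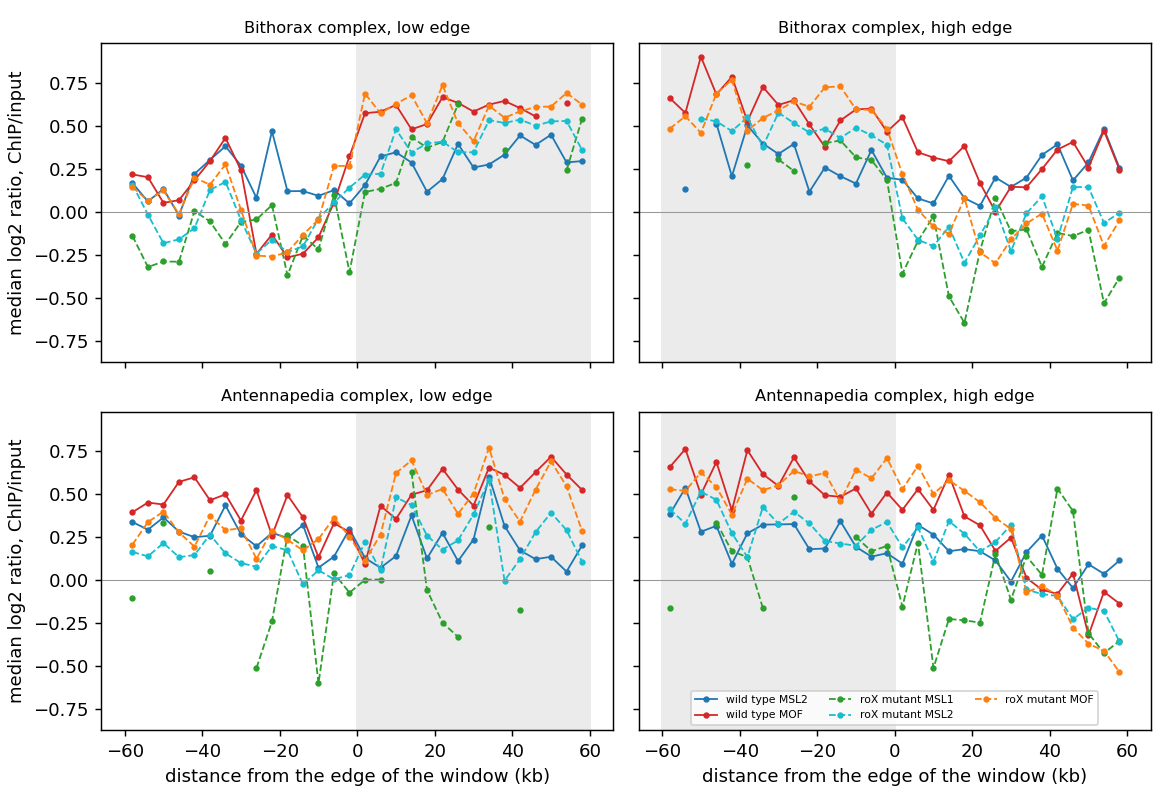
Median log2 ratio of ChIP to input in steps of 4 kb against the distance in kb from the low-coordinate edge (left) and the high-coordinate edge (right) of the bithorax complex (top) and the Antennapedia complex (bottom); the window is shaded and each line is 1 library, dashed for *roX* mutants. At the low edge of the bithorax complex the levels rise most sharply in both MOF libraries. In *roX* mutant MSL2 they rise more gradually and in *roX* mutant MSL1 unevenly. At the high edge of the Antennapedia complex levels of both MOF libraries and of *roX* mutant MSL2 stay up beyond the window before they fall.

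The Antennapedia complex was covered far better. Coverage was 50.7% (MSL2) and 52.7% (MOF) in wild type and 15.5% (MSL1), 66.4% (MSL2) and 80.7% (MOF) in *roX* mutants. The flanks had 67.1%, 50.0%, 38.0%, 70.5% and 70.6%, so that the difference was -16.5, 2.70, -22.5, -4.04 and 10.0 percentage points and had no common direction. Of 380 bins, 315, 326, 109, 363 and 373 were measured in the same order, 7 in no library and 105 in all 5. The low flank reaches into the first 2 Mb of 3R, at the centromere end, and its coverage was 64.9%, 41.5%, 30.1%, 71.7% and 67.1%.

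Coverage of the Antennapedia complex was lowest towards *Antp*, in the last of 4 equal stretches, in all libraries but *roX* mutant MOF, where the first had 78.3%. In the last stretch it was 36.0% (MSL2) and 36.8% (MOF) in wild type and 10.7% (MSL1), 63.1% (MSL2) and 79.1% (MOF) in *roX* mutants. The stretch before it had 53.0%, 56.0%, 22.1%, 71.3% and 84.8%. The lowest step of 20 kb of wild type held 25.6% for MSL2 and 27.3% for MOF, in both 3R:2800000-2820000. No step of *roX* mutant MOF was under 69.7%.

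The level of the Antennapedia complex was above its flanks in both MOF libraries and in *roX* mutant MSL2, and close to them in the other 2. Its median log2 ratio was 0.24 (MSL2) and 0.56 (MOF) in wild type and 0.05 (MSL1), 0.28 (MSL2) and 0.55 (MOF) in *roX* mutants. The flanks had 0.21, 0.24, -0.01, 0.09 and 0.08. The difference was 0.03 (MSL2) and 0.33 (MOF) in wild type and 0.06 (MSL1), 0.18 (MSL2) and 0.48 (MOF) in *roX* mutants. Bins above the flank median were 54.6%, 94.2%, 63.3%, 85.7% and 99.2% of those measured.

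Among the 67 windows of 380 kb along 3R the Antennapedia complex had the highest level for both MSL2 and MOF of *roX* mutants. The next window had 0.26 in *roX* mutant MSL2 (3R:6280000-6660000), close to the 0.28 of the complex. In *roX* mutant MOF the next window was 3R:12360000-12740000, which overlaps the bithorax complex, with 0.40. The complex was at places 17 (MSL2) and 13 (MOF) in wild type and at place 18 for MSL1 of *roX* mutants.

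Higher bins, 0.5 or more above the arms, were 2 of 315 in wild type MSL2 (0.635%, against the 0.148% of the arms), 97 of 326 in wild type MOF (29.8%, against 8.52%) and 7 of 109 in *roX* mutant MSL1 (6.42%, against 5.11%). In *roX* mutant MSL2 they were 45 of 363 (12.4%, against 1.48%) and in *roX* mutant MOF 231 of 373 (61.9%, against 5.22%). The share in *roX* mutant MSL1 was near its background. For 3R alone, outside its first 2 Mb, the background was 0.106% (MSL2) and 18.0% (MOF) in wild type. It was 4.04% (MSL1), 1.67% (MSL2) and 3.72% (MOF) in *roX* mutants. Lower bins numbered 1 in *roX* mutant MSL1 and 0 in the other libraries.

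The level of the Antennapedia complex was higher towards *Antp* than towards *lab*. Over 4 equal stretches from the *lab* end, in *roX* mutants MSL2 had 0.19, 0.21, 0.34 and 0.35, and MOF had 0.48, 0.49, 0.65 and 0.59. MSL1 had -0.004, -0.06, 0.09 and 0.17, from 22, 27, 45 and 15 bins. In wild type, MSL2 went from 0.19 through 0.20 and 0.25 to 0.28 and MOF from 0.55 through 0.55 and 0.57 to 0.61. The last stretch, which by gene order ends at *Antp*, was above the first in all libraries. The highest step was 3R:2740000-2760000 in *roX* mutant MSL1 (0.24) and *roX* mutant MOF (0.69), 3R:2760000-2780000 in wild type MSL2 (0.36) and *roX* mutant MSL2 (0.46) and 3R:2780000-2800000 in wild type MOF (0.67).

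**Figure D4:**
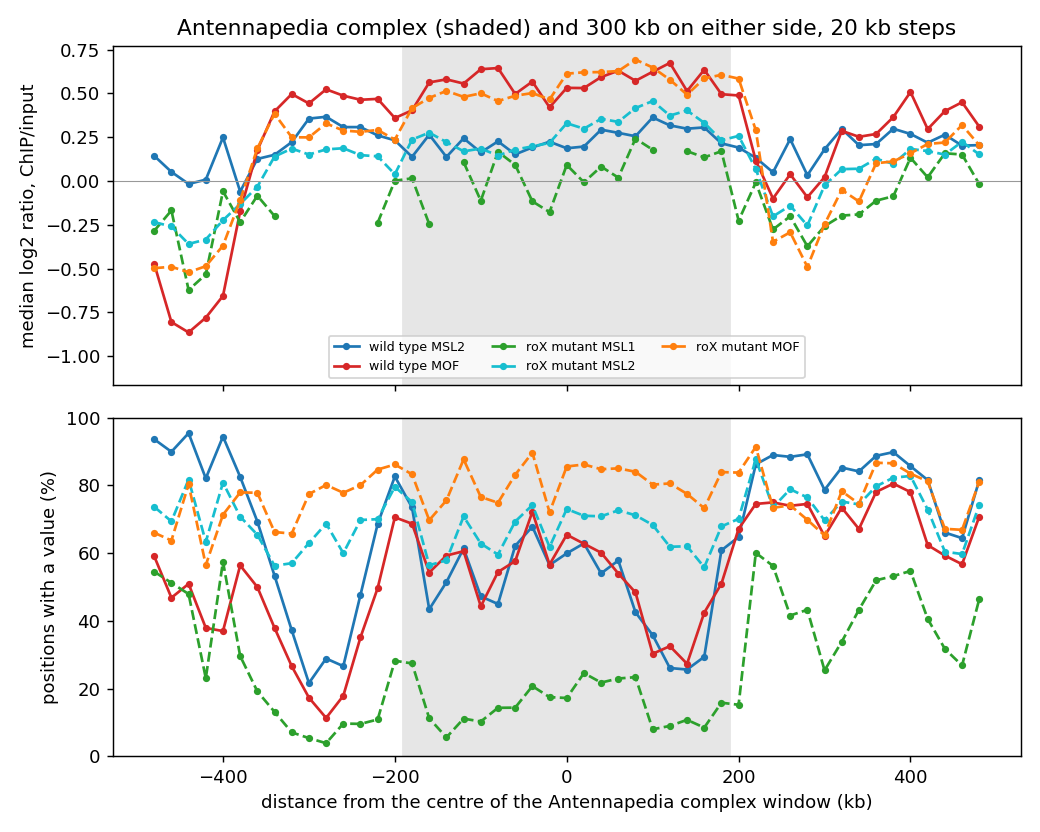
Median log2 ratio of ChIP to input (upper panel) and share of 10 bp positions with a value in percent (lower panel) in steps of 20 kb across the Antennapedia complex (shaded) and 300 kb on either side, against the distance from the centre of the window in kb; each line is 1 library, dashed for *roX* mutants, and steps with fewer than 3 measured bins have no level. Both MOF libraries stay between 0.40 and 0.69 within the window, and their levels remain raised past its high edge.

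The edges of the raised level did not match the window of the Antennapedia complex. At the high edge the 20 kb inside and outside had 0.50 and 0.49 (wild type MOF), 0.23 and 0.26 (*roX* mutant MSL2) and 0.61 and 0.58 (*roX* mutant MOF). The largest step lay 21 kb outside the window in wild type MOF, 34 kb outside in *roX* mutant MSL2 and 39 kb outside in *roX* mutant MOF. Its sizes were 0.45, 0.42 and 0.65. In *roX* mutant MSL1, where the complex was close to its flanks, the largest step was 0.39 and lay 47 kb outside. It followed a local rise outside the window, the level being 0.53 at 42 kb and -0.31 at 50 kb from the edge. In wild type MSL2 the largest step was 0.14 in size and lay 11 kb inside. At the low edge the largest step of both MOF libraries lay 5 kb inside, with 0.30 in wild type and 0.32 in *roX* mutants, and it was 0.27 in *roX* mutant MSL2, 6 kb inside. Low coverage, too, was not confined to the window. Between 2380000 and 2400000, outside the low edge, wild type MOF had a coverage of 11.3% at a level of 0.52 and *roX* mutant MSL1 a coverage of 3.85%.

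In the bithorax complex, bins with many values and bins with few gave similar levels in both MSL2 libraries and in wild type MOF. They differed more in *roX* mutant MOF and *roX* mutant MSL1. In the bithorax complex of *roX* mutant MOF the median was 0.51 in bins with 25 to 49 values, 0.49 with 50 to 74 and 0.64 with 75 to 100, against -0.03, -0.04 and 0.04 in its flanks. In *roX* mutant MSL2 the complex had 0.44, 0.44 and 0.43, against -0.005, 0.01 and -0.04. In wild type MSL2 it had 0.32, 0.33 and 0.29, against 0.24, 0.22 and 0.19. At a like number of values the bithorax complex was thus above its flanks in each class of these libraries. In wild type MOF it had 0.61, 0.63 and 0.57, against 0.18, 0.22 and 0.25. In *roX* mutant MSL1 it had 0.37, 0.29 and, from 1 bin, 0.12, against -0.14, -0.17 and -0.26. The same order thus held in these libraries. In the Antennapedia complex of *roX* mutant MOF the classes had 0.56, 0.53 and 0.56, against -0.09, 0.01 and 0.11. In wild type MSL2 they had 0.25, 0.24 and 0.20, against 0.28, 0.21 and 0.19, so that the class with the fewest values lay below the flanks.

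Poorly covered steps elsewhere on 3R mostly lay above the autosomal arms as well, except in *roX* mutant MSL1. In steps of 20 kb with a coverage under 25% outside both complexes, the median level relative to the autosomal arms was 0.09 (MSL2) and 0.33 (MOF) in wild type and -0.03 (MSL1), 0.29 (MSL2) and 0.31 (MOF) in *roX* mutants. Of those with a level, 15 of 19, 32 of 35, 75 of 158, 11 of 13 and 10 of 13 lay above the arms. The like steps of the bithorax complex had 0.15 (1 step), 0.55 (1 step), 0.41 (2 steps), 0.52 (5 steps) and 0.47 (6 steps), all above those medians. The highest of the other steps reached 0.21 (MSL2) and 0.64 (MOF) in wild type and 0.57 in *roX* mutant MSL1, above each such step of the bithorax complex in these libraries. It reached 0.48 (MSL2) and 0.41 (MOF) in *roX* mutants, within the range of the steps of the bithorax complex. In these steps low coverage and a level above the arms thus occurred together in all libraries but *roX* mutant MSL1. In wild type MOF, however, the rest of 3R as a whole lay 0.20 above the arms. Single bins of the rest of 3R with 25 to 49, 50 to 74 and 75 to 100 values were also compared. Relative to the arms they had 0.18, 0.15 and 0.22 in wild type MOF and -0.08, -0.05 and 0.04 in *roX* mutant MOF. In both MOF libraries the bins with the most values were thus the highest, as they were in *roX* mutant MSL1 (-0.02, -0.01 and 0.03). In both MSL2 libraries the bins with the fewest values were the highest. They had 0.04, 0.01 and -0.02 in wild type and 0.06, 0.03 and -0.003 in *roX* mutants. The rule by which positions have no value is not stated, the input is shared within a genotype, and the part of coverage in the level was not tested.

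**Figure D5:**
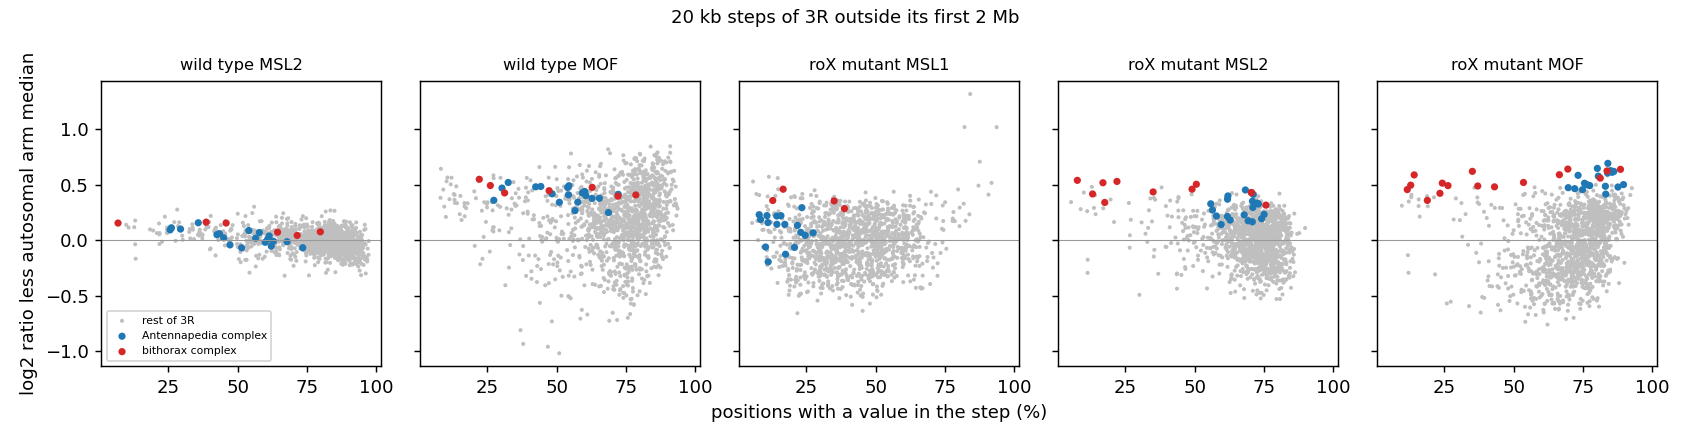
Log2 ratio of ChIP to input less the median of the autosomal arms (vertical axis) against the share of 10 bp positions with a value in percent (horizontal axis) for steps of 20 kb on 3R outside its first 2 Mb, 1 panel per library; red points are the bithorax complex, blue points the Antennapedia complex and grey points the rest of the arm. In *roX* mutant MOF the points of both complexes lie at the upper margin of the arm, over the whole range of coverage for the bithorax complex and above 69% for the Antennapedia complex.

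Relative to the flanks of both sides together, both complexes were higher in *roX* mutants than in wild type for both antibodies with a library in each genotype. In the bithorax complex the level difference from the flanks changed by 0.34 for MSL2 (from 0.12 to 0.45) and by 0.16 for MOF (from 0.39 to 0.54). The MOF value depended on the comparison stretch, with 0.28 for flanks of 500 kb and 0.29 against 3R outside its first 2 Mb. It was 0.27 at positions with a value in both genotypes. Against the low flank alone the direction was the opposite, with MOF 0.52 above that flank in wild type and 0.49 in *roX* mutants. Against the high flank alone MOF was 0.26 above in wild type and 0.62 in *roX* mutants. In the Antennapedia complex the level difference changed by 0.16 for MSL2 (from 0.03 to 0.18) and by 0.15 for MOF (from 0.33 to 0.48). The MOF change there ranged from 0.12 to 0.34 over other flanks, bins and positions. The genotypes have separate inputs and 1 library each, so a change due to genotype and a difference between libraries cannot be told apart.

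Bin by bin, each level was taken relative to the autosomal arms of its library. For MSL2, 17 of the 93 bins of the bithorax complex measured in both genotypes (18.3%) and 35 of 312 bins of the Antennapedia complex (11.2%) were higher in *roX* mutants by 0.5 or more, where the background was 1.87% of the bins on the arms. For MOF it was 8 of 111 bins (7.21%) and 19 of 326 bins (5.83%), where the background was 7.18%. The shares of MOF were thus near the background of all autosomal arms, and no background was taken from 3R alone. The rest of 3R lay 0.20 above the arms for wild type MOF, but only 0.003 above them for MOF of *roX* mutants. This lowers the MOF change of bins on 3R. The median MOF change per bin was 0.13 in the bithorax complex, against -0.07 in its flanks. It was 0.15 in the Antennapedia complex, against -0.04 in its flanks. Bins lower by 0.5 or more numbered 0 and 1 for MSL2 (background 2.86%) and 0 and 2 for MOF (background 7.94%).

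The complexes were also set beside the X-chromosome, the regular target of these proteins. Relative to the autosomal arms, X had a median of 0.11 (MSL2) and 0.58 (MOF) in wild type and 0.63 (MSL1), 0.22 (MSL2) and 0.23 (MOF) in *roX* mutants. The bithorax complex had 0.11, 0.46, 0.35, 0.43 and 0.56, and the Antennapedia complex 0.03, 0.41, 0.10, 0.27 and 0.55. The rest of 3R had -0.01, 0.20, -0.01, 0.01 and 0.003, so part of the wild type MOF value was shared by the arm. Both complexes were below the X median in wild type MOF and *roX* mutant MSL1 and above it in *roX* mutant MSL2 and *roX* mutant MOF. X was taken whole, with its centromere end, and its median does not show the height of its peaks. In wild type MSL2 the bithorax complex equalled X within the rounding.

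Bound regions were defined as in the methods, from the highest 1.5% of the values smoothed over 500 bp. The cutoff was 0.85 (MSL2) and 2.12 (MOF) in wild type and 1.63 (MSL1), 0.60 (MSL2) and 0.81 (MOF) in *roX* mutants. The bithorax complex held 0, 0, 0, 37 and 28 bound regions and the Antennapedia complex 1, 0, 0, 48 and 65. Bound regions of the complexes thus appeared almost entirely in the libraries of *roX* mutant MSL2 and *roX* mutant MOF, which have the lowest cutoffs. In *roX* mutant MSL1, whose cutoff is set by high values elsewhere, 172 of 309 regions lay on X and 0 in the complexes. X held 771 of 962 regions in wild type MSL2 and 438 of 448 in wild type MOF. It held only 235 of 2586 in *roX* mutant MSL2 and 90 of 1679 in *roX* mutant MOF, so most of their regions lay off the regular target. The paper took *roX* mutant MSL1 and wild type MSL2 as representative, their ratios being the most distinct.

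The complexes, 700 kb in all, are 2.51% of the length of 3R. For *roX* mutant MSL2 the bithorax complex held 5.66% and the Antennapedia complex 7.34% of the 654 bound regions of 3R. For *roX* mutant MOF they held 93 of 163, or 57.1%. Of the smoothed values in *roX* mutant MSL2, 18.5% were above the cutoff in the bithorax complex and 8.03% in the Antennapedia complex, where the background was 1.29% of the values on 3R. In *roX* mutant MOF it was 9.59% in both, where the background on 3R was 0.350%. On the whole of 3R the shares above the cutoff of the other libraries were 0.0566% for MSL2 and 0.00% for MOF of wild type and 0.381% for MSL1 of *roX* mutants. The flanks of the bithorax complex held 19 regions for MSL2 and 0 for MOF of *roX* mutants, over 2000 kb, and those of the Antennapedia complex 56 and 6. The bound regions of 3R in *roX* mutant MOF were thus concentrated in the complexes.

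Regions in the complexes were short and mostly little above the cutoff. For the bithorax complex the median region was 420 bp long with a value of 0.71 in MSL2, and 385 bp long with 0.91 in MOF of *roX* mutants. For the Antennapedia complex it was 445 bp with 0.72, and 420 bp with 0.90. The highest region of the bithorax complex had 1.12 in *roX* mutant MSL2 (3R:12531980-12532370) and 1.35 in *roX* mutant MOF (3R:12537460-12537850). The highest of the Antennapedia complex had 1.13 in *roX* mutant MSL2 (3R:2772670-2773200) and 1.33 in *roX* mutant MOF (3R:2673500-2675700), the latter with a length of 2200 bp.

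In the Antennapedia complex the regions lay mainly on the high-coordinate side of the centre, 34 of 48 in *roX* mutant MSL2 and 52 of 65 in *roX* mutant MOF. In the bithorax complex they were spread to both ends, with 20 on the low and 17 on the high side of the centre for MSL2 and 17 and 11 for MOF of *roX* mutants. In wild type the only region of either complex was 3R:2512390-2512720 in MSL2, with a value of 0.90. Since *roX* mutant MSL2 and *roX* mutant MOF share their input, no overlap of their regions is given.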

How the data were processed

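Chromatin of *D. melanogaster* salivary glands was sequenced on the AB SOLiD platform. Per the methods, reads that mapped once were placed by the authors on release 5 of the reference with Bioscope v1.2.1, and enrichment over input was computed. The deposited values are log2 ratios of ChIP to input at positions 10 bp apart, in files that name the log2 scale in their track lines. The scaling of ChIP to input, the rule for positions without a value and the read depth are not given in the sources used here, so no counting error could be computed. The numbers of deposited values were 8174123 (wild type MSL2), 5403741 (wild type MOF), 4328845 (*roX* mutant MSL1), 6805374 (*roX* mutant MSL2) and 6896226 (*roX* mutant MOF).

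Means of the values were taken in bins of 1 kb with at least 25 values. A bin runs from its start up to, and not including, its end. Levels are medians of bins, and the autosomal arms are 2L, 2R, 3L and 3R outside the 2 Mb at their centromere ends. Levels of 20 kb steps needed 3 measured bins, and edge searches at least 10 on each side. Stretches named in the text are the steps with the lowest and highest level or coverage and the extreme single bins or bound regions of a library. Other stretches were named after their values were seen. Bound regions joined smoothed values up to 200 bp apart and needed 200 bp and 5 units. The complexes, windows and gene lists were chosen with earlier results of these data known. The code was tested on simulated data. The 3 *D. simulans* libraries were not used, since the windows are in *D. melanogaster* coordinates. Alternatives varied bins, minimum values, flanks, windows, summary and cutoff. Python 3.11.15, numpy 2.4.6, pandas 2.3.3 and matplotlib 3.10.9 were used.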

Additional observations from a re-analysis of the deposited data

Results flagged for a closer look

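With flanks of 1 Mb, coverage of the Antennapedia complex was lower than that of the flanks in both MSL2 libraries, by -16.5 percentage points in wild type and -4.04 in *roX* mutants, and higher in both MOF libraries, by 2.70 in wild type and 10.0 in *roX* mutants. The difference between antibodies was not tested, since each has 1 library per genotype. Its direction was not stable under other settings, the wild type MOF value running from -16.3 to 11.2 and the *roX* mutant MSL2 value from -5.48 to 1.18.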

How the results depend on the processing

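No paired analysis was possible because each antibody and genotype has 1 library. With no replicates, an alternative was taken to agree where it moved a value by less than the SD over other windows of that length on 3R, and a count of regions where it stayed within 1.5 times. By this measure all 154 alternatives for the levels and 24 for the change between genotypes agreed, but it says nothing where the SD exceeds the value. That holds for the change of MOF in the bithorax complex (SD 0.31, value 0.16) and in the Antennapedia complex (SD 0.30, value 0.15). In the Antennapedia complex it also holds for the level of wild type MSL2 (SD 0.05, value 0.03) and of *roX* mutant MSL1 (SD 0.14, value 0.06). The same is true there for the coverage difference of wild type MOF (SD 13.9, value 2.70) and of *roX* mutant MSL2 (SD 7.21, value -4.04). The change of MOF ran from 0.12 to 0.29 and from 0.12 to 0.34. Flanks of a single side were not among the alternatives for this change. Relative to the low flank alone, MOF of the bithorax complex was no higher in *roX* mutants than in wild type. In the Antennapedia complex the level difference ran from -0.02 to 0.06 in wild type MSL2 and from 0.003 to 0.14 in *roX* mutant MSL1. The level difference kept its sign in 153 alternatives, the exception being the -0.02, with bins of 25 to 60 values only. Bins with at least 75 values, and Antennapedia flanks without the first 2 Mb of 3R and the 40 kb past the high edge, were added after the data were seen. With at least 75 values the Antennapedia complex had 0 bins in *roX* mutant MSL1 and gave no value. In the bithorax complex, the difference in coverage taken as the share of measured bins was -57.2 percentage points (wild type MOF), -54.1 (*roX* mutant MSL1) and -54.4 (*roX* mutant MSL2), and with the window shortened at both ends it was -49.7 in *roX* mutant MSL2. In the Antennapedia complex the share of measured bins differed by -2.41 in wild type MSL2 and -37.4 in *roX* mutant MSL1, and the coverage of wild type MOF by -16.3 against 3R outside its first 2 Mb. Over all alternatives that coverage difference ran from -16.3 to 11.2. The direction thus depended on the stretch compared, and in *roX* mutant MSL2 it turned to 1.18 with the share of measured bins. Bound regions in both complexes together numbered 0, 6 and 12 in wild type MSL2 with the highest 1%, 3% and 5% of values, while with 5% there were 17 (wild type MOF) and 5 (*roX* mutant MSL1). In *roX* mutant MSL2 they were 130 with 3% and 171 with 5%, and in *roX* mutant MOF 57 with 1%, 175 with 3% and 241 with 5%. The cause of these shifts was not tested beyond the cutoff itself.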
